A study of Mus musculus with 3 samples.

Results

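Integrin and cadherin genes were read on 3 mouse arrays, 1 for each of 3 sorted populations of endosteal cells, which lie along the inner surface of bone. The members were the probe sets whose platform symbol was one of 37 fixed names, and 36 of these names were found on the arrays, among 18193 named genes in all. They comprised 12 integrin alpha genes, 8 integrin beta genes and 16 cadherin genes, measured by 79 probe sets. No probe set carried Itga11 as its single symbol, and this gene was not analysed here. The populations were PDGFRa(+) Sca-1(+), PDGFRa(+) Sca-1(-) and PDGFRa(-) Sca-1(-) cells. All 3 came from femurs and tibiae of C57BL/6 mice, were released with collagenase, and had been depleted of cells carrying CD45, CD31 or Ter119, which mark blood, endothelial and erythroid cells. The labels give no age, sex or number of mice behind an array. PDGFRa binds platelet-derived growth factor and is found on many mesenchymal cells, and Sca-1 is used as a surface marker in sorting progenitors. The question put by the sort was how the 3 surface phenotypes differ in the genes they express.

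Integrins are receptors built from an alpha and a beta subunit that hold a cell to its matrix, or to another cell, and link that contact to actin. The alpha subunit largely sets the ligand, such as collagen, laminin or proteins with an RGD motif. Classical cadherins join like cells to each other in the presence of calcium and hold catenins on their inner side. The cadherin members also include Cdh13, Cdh16 and Cdh17, which are not classical cadherins. In bone, N-cadherin (Cdh2) and cadherin-11 (Cdh11) are known as the cadherins of osteoblasts, and integrin alpha 10 is known as a collagen receptor of cartilage cells.

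A signal is the array's linear intensity for a probe set, here scaled so that the arrays share a common trimmed mean. A floor of 93.2, the mean of the array medians, stood in for detection calls. Each gene was read from its brightest probe set by mean log2 signal, and was called higher or lower at a ratio of 2-fold or more. Where 1 array lay under the floor the ratio is a bound, written "at least". With 1 array per population no spread between replicates exists and no difference was tested, so each ratio describes a pair of arrays. The SD of log2 ratios between probe sets of the same gene was 0.60 for PDGFRa(+) Sca-1(+) over PDGFRa(+) Sca-1(-), 0.37 for PDGFRa(+) Sca-1(-) over PDGFRa(-) Sca-1(-) and 0.50 for PDGFRa(+) Sca-1(+) over PDGFRa(-) Sca-1(-). That SD covers scatter between probes, not between animals. Signals of different genes come from different probes and are not set against each other.

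Of the gate genes, Pdgfra had a signal of 12846 in PDGFRa(+) Sca-1(+) cells, 2420 in PDGFRa(+) Sca-1(-) cells and 586 in PDGFRa(-) Sca-1(-) cells. The transcript was thus lowest in the population sorted as PDGFRa-negative, although above the floor there. Ptprc, which encodes CD45, and Pecam1, which encodes CD31, lay under the floor on all 3 arrays. The summed signal of 11 chondrocyte markers was 42233 in PDGFRa(+) Sca-1(+) cells, 258016 in PDGFRa(+) Sca-1(-) cells and 247142 in PDGFRa(-) Sca-1(-) cells, so cartilage transcripts were abundant in cells labelled endosteal. The sum over 7 osteoblast markers was 18840, 120442 and 43029 in the same order, and that over 8 fibroblast and adventitial markers was 109033, 8004 and 1779. The last sum includes the gate gene Pdgfra, with the signals given above. In sorted bulk RNA, fewer cells of a type and less RNA per cell cannot be told apart.

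Of the 36 genes, 23 lay above the floor on at least 1 array and 13 on all 3. Of all 18193 genes, 12211 lay above it on at least 1 array. By population, 17 members were above it in PDGFRa(+) Sca-1(+) cells, 19 in PDGFRa(+) Sca-1(-) cells and 18 in PDGFRa(-) Sca-1(-) cells. The counts over all genes were 10846, 11042 and 11026 in the same order. A gene that passed only through the array where it is bright will tend to show a ratio, so the counts below describe the members and support nothing further. Integrin alpha genes passed for 11 of 12, integrin beta genes for 6 of 8 and cadherins for 6 of 16. Among those 23, 5 were at least 2-fold above both other populations in PDGFRa(+) Sca-1(+) cells, namely Itga2b, Itgb3, Itgb8, Cdh4 and Cdh13. Of all genes above the floor, 10.6% had that pattern. Another 5 stood above both others in PDGFRa(+) Sca-1(-) cells, namely Itga1, Itga7, Cdh2, Cdh15 and Cdh19, a pattern of 2.46% of all genes. Only Itga4 stood above both others in PDGFRa(-) Sca-1(-) cells (3.19% of all genes). In the opposite sense, Itga1, Itga3 and Itga10 were at least 2-fold below both others in PDGFRa(+) Sca-1(+) cells (6.96% of all genes), Itga8 in PDGFRa(+) Sca-1(-) cells (1.3%), and Itgb3, Itgb5 and Cdh11 in PDGFRa(-) Sca-1(-) cells (1.57%).

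**Figure D1:**
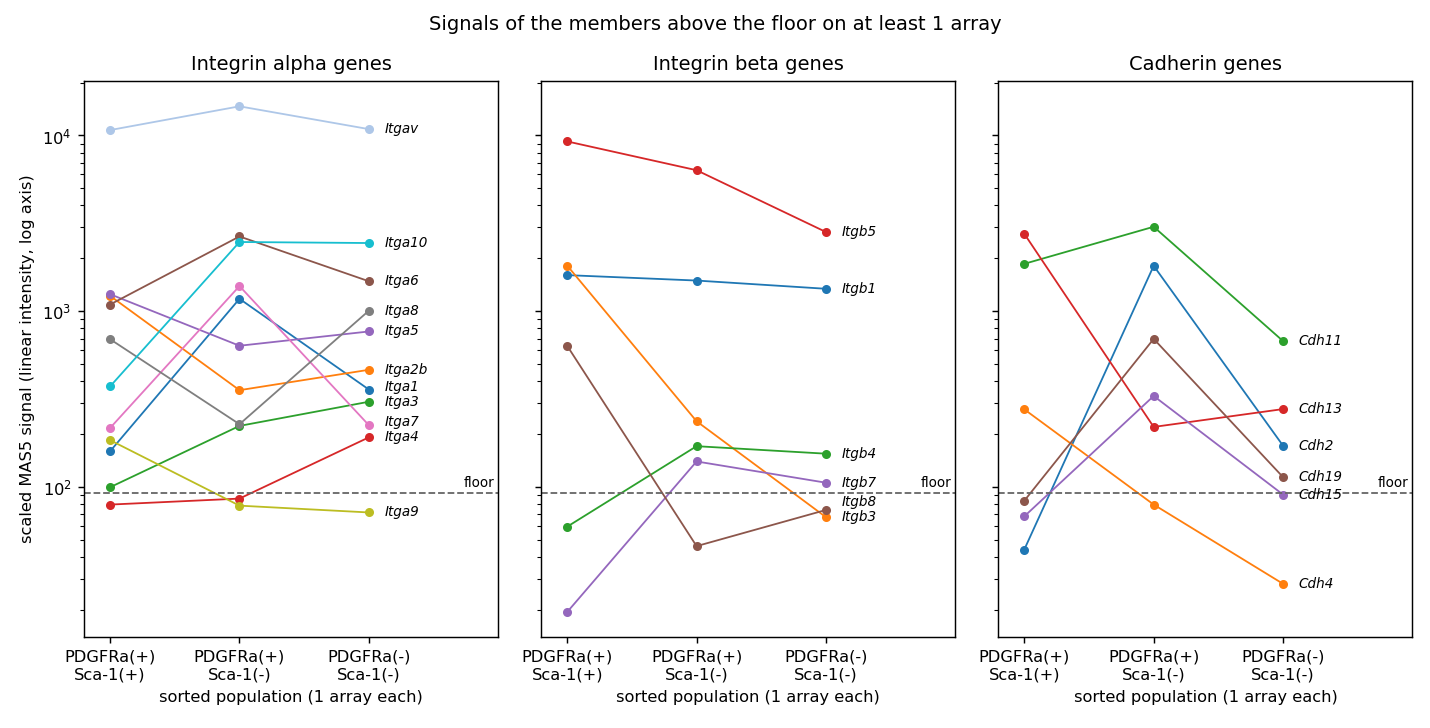
Scaled MAS5 signal (linear intensity on a log axis) of the 23 members with 1 or more arrays above the floor, with a line joining the 3 populations for each gene and the floor of 93.2 dashed. Each point is 1 array, signals under the floor are drawn as measured, and heights compare populations within a gene only. Cdh13, Itgb3 and Itgb8 are highest at the left, whereas Cdh2, Cdh15, Cdh19, Itga1 and Itga7 peak in the middle.

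Among the integrin alpha genes that encode collagen receptors, Itga10 had a signal of 374 in PDGFRa(+) Sca-1(+) cells, 2478 in PDGFRa(+) Sca-1(-) cells and 2445 in PDGFRa(-) Sca-1(-) cells. It was thus low in the Sca-1(+) population alone, 6.63-fold below PDGFRa(+) Sca-1(-) cells and 6.54-fold below PDGFRa(-) Sca-1(-) cells, and level between the Sca-1(-) populations (log2 ratio 0.02). Among the chondrocyte markers, Col2a1, the main cartilage collagen and a ligand of this receptor, had signals of 4096, 26563 and 27518 in the same order. Not all of these markers followed it: Comp was 25256, 28927 and 29358, and Matn1 was 115, 18704 and 2331. The part of chondrocytes in the Itga10 values was not tested. Itga1 behaved otherwise, at 160 in PDGFRa(+) Sca-1(+) cells, 1178 in PDGFRa(+) Sca-1(-) cells and 359 in PDGFRa(-) Sca-1(-) cells. It was highest in the middle population, 3.28-fold above PDGFRa(-) Sca-1(-) cells, and 7.35-fold lower in PDGFRa(+) Sca-1(+) than in PDGFRa(+) Sca-1(-) cells. Its second probe set was under the floor on all 3 arrays, so each Itga1 ratio rests on a single probe set. Itga2, the platelet and epithelial collagen receptor subunit, stayed under the floor, with a highest signal of 82.4. Itga2 and Itga1 are next to each other among the protein-coding genes of the RefSeq mouse assembly GRCm38.p6, and the signal of Itga1 was not shared by its neighbour.

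The laminin receptor subunits were lower in PDGFRa(+) Sca-1(+) than in PDGFRa(+) Sca-1(-) cells for all 3 of Itga3, Itga6 and Itga7. Itga7, best known from skeletal muscle, had signals of 217 in PDGFRa(+) Sca-1(+) cells, 1392 in PDGFRa(+) Sca-1(-) cells and 225 in PDGFRa(-) Sca-1(-) cells. It was 6.4-fold lower in PDGFRa(+) Sca-1(+) than in PDGFRa(+) Sca-1(-) cells and 6.19-fold higher in PDGFRa(+) Sca-1(-) than in PDGFRa(-) Sca-1(-) cells. The log2 ratio of PDGFRa(+) Sca-1(+) over PDGFRa(-) Sca-1(-) cells was -0.05. Itga6, which pairs with Itgb1 or Itgb4, was 1093, 2665 and 1482 in the same order, 2.44-fold lower in PDGFRa(+) Sca-1(+) than in PDGFRa(+) Sca-1(-) cells. Both Itga6 probe sets gave that call, with log2 ratios of -1.29 and -1.55. Itga3 was dim throughout, at 99.9 in PDGFRa(+) Sca-1(+) cells, 223 in PDGFRa(+) Sca-1(-) cells and 306 in PDGFRa(-) Sca-1(-) cells, close to the floor in the first, and only 1 of its 3 probe sets passed the floor.

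Of the subunits that read RGD motifs, Itgav and Itga5 stayed within 2-fold in every comparison by the probe set used, while Itga8 and Itga2b did not. Itgav, the shared partner of several beta subunits and a receptor subunit for vitronectin, had signals of 10731 in PDGFRa(+) Sca-1(+) cells, 14646 in PDGFRa(+) Sca-1(-) cells and 10865 in PDGFRa(-) Sca-1(-) cells. Dimmer Itgav probe sets disagreed. One gave 190, 655 and 378, a log2 ratio of -1.79 for PDGFRa(+) Sca-1(+) over PDGFRa(+) Sca-1(-), and another 112, 170 and 233, a log2 ratio of -1.06 for PDGFRa(+) Sca-1(+) over PDGFRa(-) Sca-1(-). With the mean over all Itgav probe sets the log2 ratios of these comparisons were -1.74 and -1.63, both past the threshold, and with the mean over those above the floor they were -1.36 and -1.33. Itga5, the fibronectin receptor subunit, was 1251, 637 and 768 in that order, with a log2 ratio of 0.97 between the PDGFRa(+) populations, just under the threshold, and 0.14 and 0.45 by its other probe sets above the floor.

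Itga8, whose dimer with Itgb1 binds nephronectin, showed the reverse of Itga7. Its signal was 694 in PDGFRa(+) Sca-1(+) cells, 228 in PDGFRa(+) Sca-1(-) cells and 1008 in PDGFRa(-) Sca-1(-) cells, so that the middle population was lowest. It was 3.04-fold higher in PDGFRa(+) Sca-1(+) than in PDGFRa(+) Sca-1(-) cells and 4.42-fold lower in PDGFRa(+) Sca-1(-) than in PDGFRa(-) Sca-1(-) cells. Its second probe set was under the floor on all 3 arrays, so each Itga8 ratio rests on a single probe set. With the mean over all its probe sets, the log2 ratio between the PDGFRa(+) populations fell from 1.60 to 0.41, under the threshold. Npnt, which encodes nephronectin and was singled out after its values were seen, had signals of 93.3, 466 and 148 in the same order. It was brightest where Itga8 was dimmest.

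Itga2b, the alpha subunit of the platelet fibrinogen receptor, had a signal of 1224 in PDGFRa(+) Sca-1(+) cells, 356 in PDGFRa(+) Sca-1(-) cells and 465 in PDGFRa(-) Sca-1(-) cells. It was 3.44-fold higher in PDGFRa(+) Sca-1(+) than in PDGFRa(+) Sca-1(-) cells and 2.63-fold higher than in PDGFRa(-) Sca-1(-) cells, by its only probe set. Of 7 megakaryocyte and platelet markers with a probe set, 3 were above the floor in PDGFRa(+) Sca-1(+) cells, 2 in PDGFRa(+) Sca-1(-) cells and 5 in PDGFRa(-) Sca-1(-) cells. Their summed signals were 688, 834 and 1554. Of the platelet receptor genes, Gp1bb was above the floor on all 3 arrays, at 307, 479 and 946. Gp9 and Gp6 lay under it on all 3, and Gp5 was at 94.9, 56.6 and 98.2 in the same order. Pf4 was at 104, 63.1 and 94.4, Ppbp at 44.8, 56.1 and 146, and Treml1 at 77.1, 150 and 255. The part of megakaryocytes and platelets in the Itga2b value was not tested.

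The related subunits Itga4 and Itga9, which bind VCAM-1 and matrix proteins, were near the floor. Itga4, known from leukocytes and progenitors, passed it only in PDGFRa(-) Sca-1(-) cells, with 79.6 in PDGFRa(+) Sca-1(+) cells, 86.1 in PDGFRa(+) Sca-1(-) cells and 192 in PDGFRa(-) Sca-1(-) cells, by 1 of its 5 probe sets. Itga9 passed it only in PDGFRa(+) Sca-1(+) cells, at 185, against 78.5 in PDGFRa(+) Sca-1(-) cells and 71.8 in PDGFRa(-) Sca-1(-) cells. That made it at least 1.98-fold higher, just under the threshold. A dimmer-ranked Itga9 probe set gave 375, 42.5 and 53.2, a log2 ratio of at least 2.01 between the PDGFRa(+) populations.

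To show the sequence upstream of members with opposite ratios, the 250 bases before the annotated start are given for the 2 members with the largest ratio in each direction between PDGFRa(+) Sca-1(+) and PDGFRa(+) Sca-1(-) cells, among called members with an entry in the promoter table. The sequences are RefSeq's, build GRCm38.p6, and 22 of the 37 names had an entry. Itgb8 lies at chr12:119238277-119238526 on the minus strand and Itga2b at chr11:102469884-102470133 on the minus strand; both genes were higher in PDGFRa(+) Sca-1(+) cells. Itga1 lies at chr13:115101965-115102214 on the minus strand and Itga10 at chr3:96645334-96645583 on the plus strand; both were lower there. Each run is written 5′ to 3′ on the gene's strand, ending at the base before the start, and capitals mark motif matches.
Itgb8: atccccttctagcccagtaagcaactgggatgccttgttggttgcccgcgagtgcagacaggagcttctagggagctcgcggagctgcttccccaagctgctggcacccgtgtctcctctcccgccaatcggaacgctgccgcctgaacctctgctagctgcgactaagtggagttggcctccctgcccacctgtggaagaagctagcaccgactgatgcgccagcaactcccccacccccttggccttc
Itga2b: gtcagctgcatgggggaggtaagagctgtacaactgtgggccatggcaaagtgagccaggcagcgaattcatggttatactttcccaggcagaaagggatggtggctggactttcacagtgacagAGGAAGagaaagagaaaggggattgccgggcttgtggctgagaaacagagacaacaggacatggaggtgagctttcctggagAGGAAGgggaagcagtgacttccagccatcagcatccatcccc
Itga1: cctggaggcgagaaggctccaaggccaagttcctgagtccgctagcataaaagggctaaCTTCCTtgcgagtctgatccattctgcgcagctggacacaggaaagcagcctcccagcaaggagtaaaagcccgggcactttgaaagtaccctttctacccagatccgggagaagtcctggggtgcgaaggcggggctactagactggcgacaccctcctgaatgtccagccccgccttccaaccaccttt
Itga10: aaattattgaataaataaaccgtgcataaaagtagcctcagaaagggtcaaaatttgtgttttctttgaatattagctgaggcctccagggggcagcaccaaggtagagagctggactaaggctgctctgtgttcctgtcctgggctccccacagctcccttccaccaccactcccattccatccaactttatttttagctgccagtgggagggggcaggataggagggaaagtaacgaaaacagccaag

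Both strands were searched for short motifs. The letters TATAAA stood for the core promoter box that binds the general machinery, and GGGCGG for the box read by Sp factors. The core site of RUNX factors was entered as TGTGGT and that of GATA factors as AGATAA, the site of ETS factors as AGGAAG, and the site of SOX factors as AACAAT. Only AGGAAG was found in these 4 windows. It began 125 and 43 bases before the start of Itga2b and lay once in Itga1, on the opposite strand, beginning 191 bases before the start. No matches overlapped. Of 32851 promoter windows of this length, 29.5% held AGGAAG on either strand, 32.7% GGGCGG, 14% TGTGGT, 12.4% TATAAA, 9.99% AGATAA and 9.42% AACAAT. The windows held 62.4% G and C for Itgb8, 54.0% for Itga2b, 57.6% for Itga1 and 48.0% for Itga10, against a median of 52.4% over all windows. A match of letters describes the sequence and does not show that a factor binds there.

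Among the beta subunits, Itgb1, the common partner of the collagen, laminin and fibronectin receptors, was level. Its signal was 1606 in PDGFRa(+) Sca-1(+) cells, 1496 in PDGFRa(+) Sca-1(-) cells and 1343 in PDGFRa(-) Sca-1(-) cells, with log2 ratios of 0.10, 0.16 and 0.26 for PDGFRa(+) Sca-1(+) over PDGFRa(+) Sca-1(-), PDGFRa(+) Sca-1(-) over PDGFRa(-) Sca-1(-) and PDGFRa(+) Sca-1(+) over PDGFRa(-) Sca-1(-). A second bright probe set gave 1374, 1464 and 1221. Of the alpha subunits that pair with Itgb1, Itga1, Itga7, Itga8 and Itga10 differed between populations by several fold. Itga3 and Itga6 were called with ratios of up to 3.06-fold and 2.44-fold, and Itga4 with a bound of at least 2.06-fold. Itga5, Itga9 and Itgav were not called in any comparison by the probe set used. The largest ratio of Itgb1 itself was 1.2-fold.

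The beta genes called in any comparison were Itgb3, Itgb5 and Itgb8, all of which encode partners of Itgav, and each was highest in PDGFRa(+) Sca-1(+) cells. Itgb3, known from platelets and osteoclasts and a partner of both Itgav and Itga2b, had a signal of 1819 in PDGFRa(+) Sca-1(+) cells, 237 in PDGFRa(+) Sca-1(-) cells and 67.5 in PDGFRa(-) Sca-1(-) cells. It was 7.68-fold higher in PDGFRa(+) Sca-1(+) than in PDGFRa(+) Sca-1(-) cells, at least 2.54-fold higher in PDGFRa(+) Sca-1(-) than in PDGFRa(-) Sca-1(-) cells, and at least 19.5-fold higher in PDGFRa(+) Sca-1(+) than in PDGFRa(-) Sca-1(-) cells. Its second probe set stayed under the floor on all 3 arrays, so the order rests on a single probe set. Of 8 osteoclast markers, Calcr, Ocstamp, Dcstamp, Oscar and Mmp9 were under the floor on every array. Ctsk and Acp5, which also occur in other mesenchymal and myeloid cells, were highest in PDGFRa(+) Sca-1(+) cells, at 10800 and 428, against 4145 and 256 in PDGFRa(+) Sca-1(-) cells and 5077 and 164 in PDGFRa(-) Sca-1(-) cells. Atp6v0d2, a proton pump subunit gene, was 126, 39.2 and 29.7 in that order, above the floor in PDGFRa(+) Sca-1(+) cells alone. The summed signal of all 8 was 11475, 4619 and 5414. The share of osteoclasts in the Itgb3 value was not tested.

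Itgb5, which forms a vitronectin receptor with Itgav, was called by every one of its probe sets. The probe set used gave 9249 in PDGFRa(+) Sca-1(+) cells, 6344 in PDGFRa(+) Sca-1(-) cells and 2824 in PDGFRa(-) Sca-1(-) cells. It stepped up with PDGFRa, 2.25-fold higher in PDGFRa(+) Sca-1(-) than in PDGFRa(-) Sca-1(-) cells, and differed by 1.46-fold between the PDGFRa(+) populations. All 4 probe sets made the call, with log2 ratios of 1.12 to 1.27 for PDGFRa(+) Sca-1(-) over PDGFRa(-) Sca-1(-) and 1.56 to 1.71 for PDGFRa(+) Sca-1(+) over PDGFRa(-) Sca-1(-). Itgb8, whose dimer with Itgav is known to activate latent TGF-beta, had 636 in PDGFRa(+) Sca-1(+) cells, 46.2 in PDGFRa(+) Sca-1(-) cells and 74.2 in PDGFRa(-) Sca-1(-) cells. It passed the floor in PDGFRa(+) Sca-1(+) cells alone, at least 6.83-fold higher than in either other population, by its only probe set. Itgb6, whose dimer with Itgav is also known to activate latent TGF-beta, was under the floor, with a highest signal of 39.0.

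The remaining beta genes were dim. Itgb4, the hemidesmosome subunit, had 59.6 in PDGFRa(+) Sca-1(+) cells, 171 in PDGFRa(+) Sca-1(-) cells and 155 in PDGFRa(-) Sca-1(-) cells. Itgb7, a leukocyte subunit, had 19.5, 140 and 106 in that order. Both were under the floor in PDGFRa(+) Sca-1(+) cells and not called, since their bounds were at least 1.84-fold and at least 1.51-fold against PDGFRa(+) Sca-1(-) cells. Itgb2, the leukocyte beta subunit, did not exceed 41.4, and its partner genes Itgal, Itgam and Itgax, with Itgae, a partner of Itgb7, were under the floor as well. Among 12 blood cell markers with a probe set, 4, 5 and 5 were above the floor in PDGFRa(+) Sca-1(+), PDGFRa(+) Sca-1(-) and PDGFRa(-) Sca-1(-) cells, with summed signals of 1205, 1133 and 941.

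**Figure D2:**
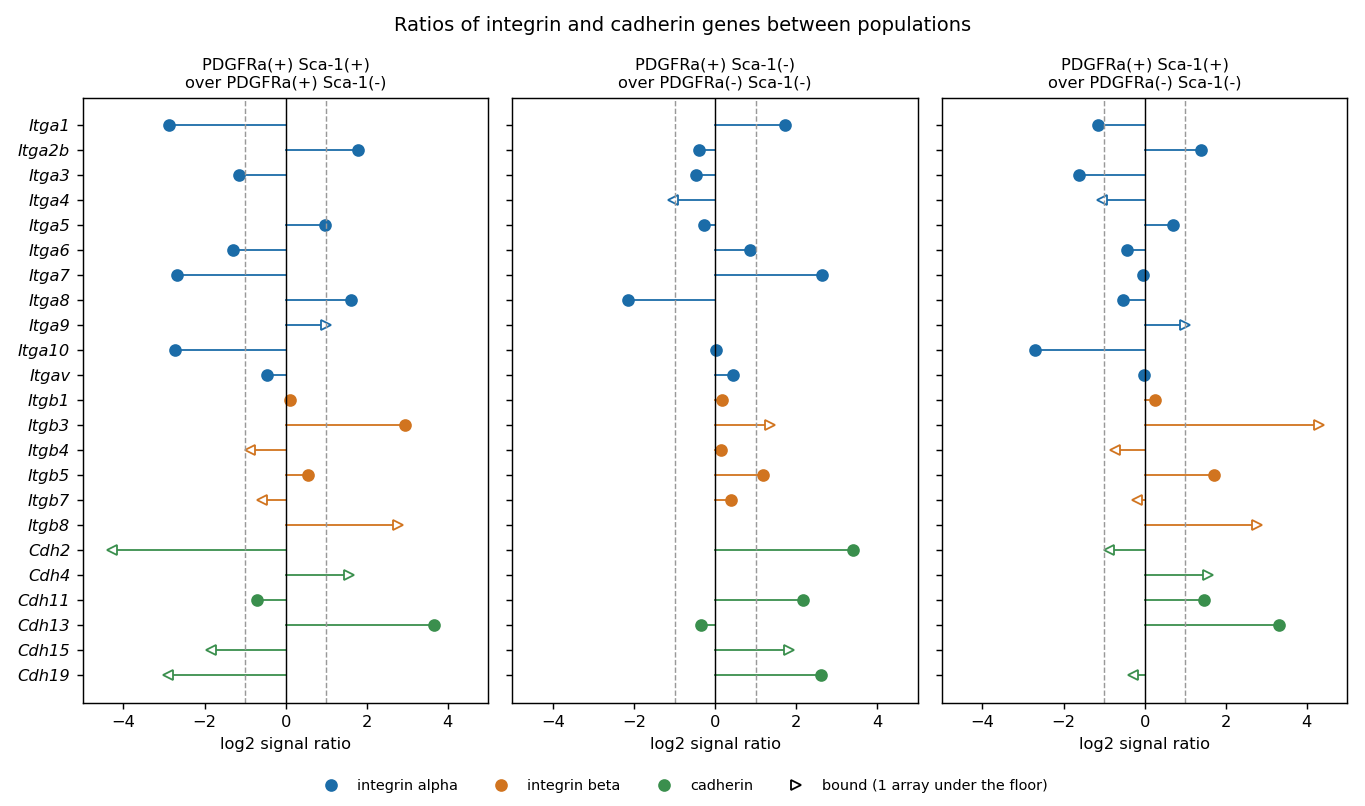
Log2 signal ratio of each member above the floor in the 3 comparisons (x axis, no unit), with dashed lines at 2-fold and open triangles where 1 array was under the floor and the ratio is a bound. Cdh2 lies furthest left in the first panel and furthest right in the second, and Itgb1 and Itgav stay inside the dashed lines in all 3.

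The cadherins with a signal were few, and 5 of the 6 were at least 2-fold apart between PDGFRa(+) Sca-1(+) and PDGFRa(+) Sca-1(-) cells. Of all genes compared there, 26.2% were called, and 4 of the 6 cadherin ratios are bounds. Cdh2, N-cadherin, had a signal of 44.2 in PDGFRa(+) Sca-1(+) cells, 1814 in PDGFRa(+) Sca-1(-) cells and 172 in PDGFRa(-) Sca-1(-) cells. It was at least 19.5-fold lower in PDGFRa(+) Sca-1(+) than in PDGFRa(+) Sca-1(-) cells and 10.6-fold higher in PDGFRa(+) Sca-1(-) than in PDGFRa(-) Sca-1(-) cells. Its second probe set gave 5.29, 974 and 143, with the same calls. Cdh11, the other osteoblast cadherin, was 1862 in PDGFRa(+) Sca-1(+) cells, 3026 in PDGFRa(+) Sca-1(-) cells and 677 in PDGFRa(-) Sca-1(-) cells. Unlike Cdh2 it stayed within 2-fold between the PDGFRa(+) populations (log2 ratio -0.70), and it was 4.47-fold higher in PDGFRa(+) Sca-1(-) than in PDGFRa(-) Sca-1(-) cells. Against PDGFRa(-) Sca-1(-) cells, PDGFRa(+) Sca-1(+) cells were 2.75-fold higher by this probe set, whereas the dimmer one gave a bound of only 0.58 on the log2 scale. The osteoblast markers were also highest in PDGFRa(+) Sca-1(-) cells, with Alpl at 356, 15795 and 5122 in the same order of populations. The part of osteoblasts in the Cdh2 and Cdh11 values was not tested.

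Cdh15 and Cdh19 were, like Cdh2, highest in PDGFRa(+) Sca-1(-) cells. Cdh19, a cadherin of neural crest and Schwann cells, had signals of 83.7 in PDGFRa(+) Sca-1(+) cells, 697 in PDGFRa(+) Sca-1(-) cells and 114 in PDGFRa(-) Sca-1(-) cells. It was at least 7.48-fold lower in PDGFRa(+) Sca-1(+) than in PDGFRa(+) Sca-1(-) cells and 6.13-fold higher in PDGFRa(+) Sca-1(-) than in PDGFRa(-) Sca-1(-) cells. Sox10, a defining transcription factor of Schwann cells, was 123, 83.8 and 54.7 in that order, whereas Mbp, a myelin gene, was 109, 543 and 663. Ngfr at 210, 102 and 112, Erbb3 at 207, 156 and 90.7 and Gfra3 at 122, 34.2 and 119 were, like Sox10, highest in PDGFRa(+) Sca-1(+) cells. S100b, at 1092, 5800 and 8404, rose like Mbp. Of 6 Schwann and nerve markers, 6, 4 and 4 were above the floor, and their summed signal was 1864, 6719 and 9444, most of it S100b, which cartilage cells also express. The part of Schwann cells in the Cdh19 value was not tested.

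Cdh15, M-cadherin of muscle precursors, had 68.2 in PDGFRa(+) Sca-1(+) cells, 330 in PDGFRa(+) Sca-1(-) cells and 90.7 in PDGFRa(-) Sca-1(-) cells. It passed the floor in PDGFRa(+) Sca-1(-) cells alone, at least 3.54-fold above each other population. Of the muscle regulators, Pax7, Myf5 and Myog were under the floor on all 3 arrays, and Myod1 was at 15.4, 49.8 and 94.9, just above the floor in PDGFRa(-) Sca-1(-) cells. Acta1, skeletal actin, was at 90, 638 and 457, Des, desmin, at 113, 166 and 131, and Tnnt3, a troponin, at 98.1, 81.3 and 335. The sum over 9 skeletal muscle markers was 468 in PDGFRa(+) Sca-1(+) cells, 1087 in PDGFRa(+) Sca-1(-) cells and 1053 in PDGFRa(-) Sca-1(-) cells. The part of muscle cells in the Itga7 and Cdh15 values was not tested.

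Cdh13 and Cdh4 ran the other way. Cdh13, T-cadherin, which is anchored to the membrane by a lipid and binds adiponectin, had a signal of 2759 in PDGFRa(+) Sca-1(+) cells, 220 in PDGFRa(+) Sca-1(-) cells and 278 in PDGFRa(-) Sca-1(-) cells. It was 12.5-fold higher in PDGFRa(+) Sca-1(+) than in PDGFRa(+) Sca-1(-) cells and 9.93-fold higher than in PDGFRa(-) Sca-1(-) cells. A second Cdh13 probe set gave 1383, 233 and 136, with the same calls, and another passed the floor only barely, at 96.7 in PDGFRa(+) Sca-1(+) cells. Cdh4, R-cadherin, had 277 in PDGFRa(+) Sca-1(+) cells, 79.6 in PDGFRa(+) Sca-1(-) cells and 28.2 in PDGFRa(-) Sca-1(-) cells. It was at least 2.98-fold higher in PDGFRa(+) Sca-1(+) cells than in either other population, but its second probe set, at 161, 45.8 and 26.8, fell short of the threshold with a bound of 0.79 on the log2 scale.

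**Figure D3:**
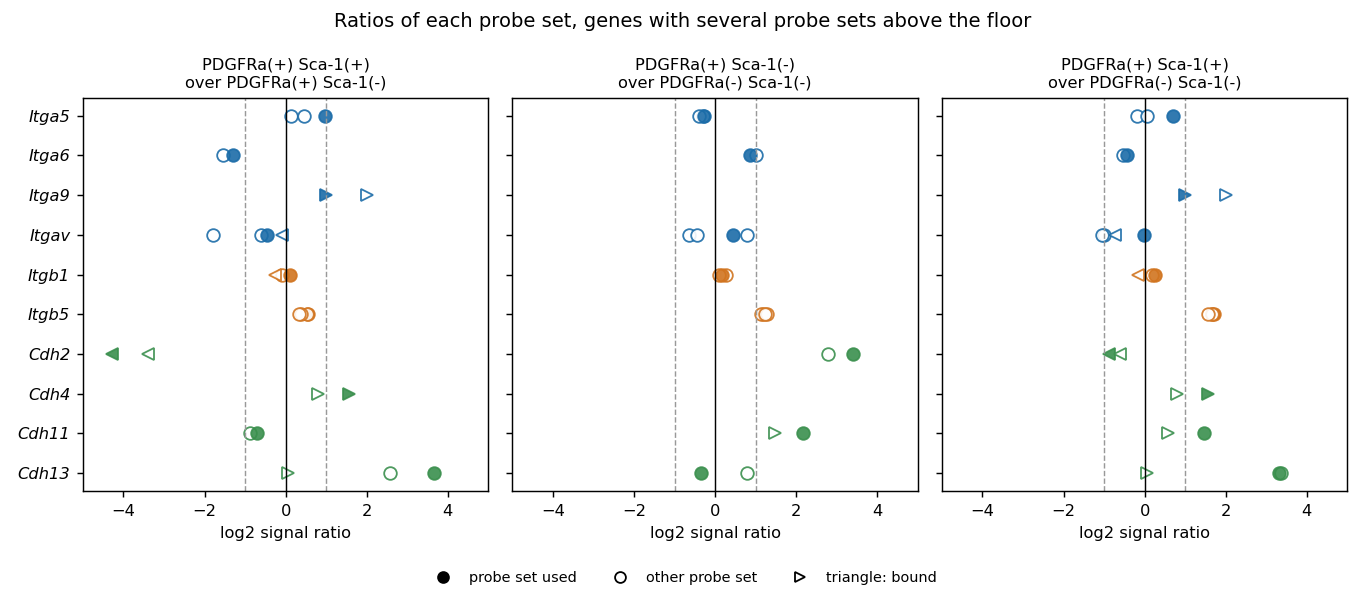
Log2 signal ratio of each probe set above the floor, for the 10 members with several such probe sets (filled, the probe set used; open, the others; triangles, bounds; dashed lines, 2-fold). The 4 Itgb5 points nearly coincide, while those of Cdh13 and Itgav are spread over more than 1 log2 unit in the first panel.

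The other 10 cadherins were under the floor on all 3 arrays, with signals from 5.10 to 89.1. They were Cdh1, Cdh3, Cdh5, Cdh6, Cdh8, Cdh10, Cdh16, Cdh17, Cdh20 and Cdh22. Cdh1, E-cadherin, was at 5.29 in PDGFRa(+) Sca-1(+) cells, 89.1 in PDGFRa(+) Sca-1(-) cells and 47.5 in PDGFRa(-) Sca-1(-) cells, while Epcam, an epithelial adhesion gene, was above the floor at 909, 1837 and 927. Of 9 epithelial markers, 3, 4 and 3 were above the floor in that order. Their summed signal was 1265, 2612 and 1396, most of it Epcam. Krt14, Krt19 and Esrp1 were under the floor on all 3 arrays. Cdh5, the cadherin of endothelial junctions, was at 27.1, 22.5 and 37.9, and Pecam1 and Tie1 were likewise under the floor. Among 11 endothelial markers 3, 4 and 2 passed the floor in PDGFRa(+) Sca-1(+), PDGFRa(+) Sca-1(-) and PDGFRa(-) Sca-1(-) cells. In that order, Tek was at 888, 37.4 and 13.3, Eng at 752, 347 and 306, and Kdr at 155, 110 and 67.1. Erg was at 82.6, 656 and 527, and Esam at 41, 101 and 36.3. Cdh8, Cdh11 and Cdh5 follow each other among the protein-coding genes of GRCm38.p6, as do Cdh3 and Cdh1, and in the first of these runs Cdh11 alone was above the floor.

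Counted by comparison, 14 of the 36 genes were called between PDGFRa(+) Sca-1(+) and PDGFRa(+) Sca-1(-) cells, out of 22 that could be compared. They were 6 higher and 8 lower, while 26.2% of all 11855 genes compared were called, 14.9% higher and 11.3% lower. Integrin alpha genes were higher for 2 of 10 compared and lower for 5, beta genes higher for 2 of 6 and lower for 0, and cadherins higher for 2 of 6 and lower for 3. The median log2 ratio of the members was -0.52, against 0.07 over all genes compared. All 4 called members with several comparable probe sets had every one on the same side of zero, and 2 of them had every one past the threshold.

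Between PDGFRa(+) Sca-1(-) and PDGFRa(-) Sca-1(-) cells, 8 members were higher and 2 lower of 20 compared, while 10.4% of all 11675 genes compared were called, 4.82% higher and 5.63% lower. The 8 were Itga1, Itga7, Itgb3, Itgb5, Cdh2, Cdh11, Cdh15 and Cdh19, and the 2 were Itga4 and Itga8. Cadherins were higher for 4 of 5 compared, with a median log2 ratio of 2.16, and the median over all members was 0.42, against -0.03 over all genes. Between PDGFRa(+) Sca-1(+) and PDGFRa(-) Sca-1(-) cells, 7 members were higher and 4 lower of 22 compared, while 26.6% of all 11843 genes were called, 14.5% higher and 12.2% lower. Itga2b, Itgb3, Itgb5, Itgb8, Cdh4, Cdh11 and Cdh13 were the 7, and Itga1, Itga3, Itga4 and Itga10 the 4. The median was -0.03, against 0.03 over all genes. The 3 comparisons share arrays, so their counts are not independent.

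The molecules that integrins bind were read from a list of 38 ligand genes, which goes beyond the members. Between PDGFRa(+) Sca-1(+) and PDGFRa(+) Sca-1(-) cells, 12 of 32 compared were higher and 9 lower, 65.6% in all, against 26.2% of all genes. The largest ratios were those of the mineralised matrix proteins Dmp1 (39.1 against 12890, at least 138-fold lower) and Ibsp (728 against 31665, 43.5-fold lower), both RGD proteins, and of the basement membrane collagen gene Col4a1 (13916 against 964, 14.4-fold higher). Between PDGFRa(+) Sca-1(-) and PDGFRa(-) Sca-1(-) cells, 7 of 32 were higher and 2 lower, 28.1% against 10.4% of all genes. The laminin chains Lama4 (2331 against 558, 4.18-fold) and Lamb1 (797 against 207, 3.85-fold) followed Dmp1 (12890 against 426, 30.3-fold). Between PDGFRa(+) Sca-1(+) and PDGFRa(-) Sca-1(-) cells, 13 of 31 were higher and 8 lower, 67.7% against 26.6% of all genes. Lamb1 was 41.4-fold higher, at 8579 against 207, and Vcam1, the counter-receptor of Itga4 and Itga9 dimers, was 20.5-fold higher, at 5497 against 268, whereas Ibsp was 22.1-fold lower. The named laminin genes Lama4 and Lamb1 were thus highest in PDGFRa(+) Sca-1(+) cells, Lama4 by only 1.91-fold over PDGFRa(+) Sca-1(-) cells. The laminin receptor genes Itga3, Itga6 and Itga7 were all lower in PDGFRa(+) Sca-1(+) than in PDGFRa(+) Sca-1(-) cells. Against PDGFRa(-) Sca-1(-) cells, Itga3 was 3.06-fold lower, but Itga6 and Itga7 were within 2-fold (log2 ratios -0.44 and -0.05).

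The genes that couple integrins to actin were read from an adhesion complex list. Of 26 genes compared, 6 were higher and 3 lower in PDGFRa(+) Sca-1(+) than in PDGFRa(+) Sca-1(-) cells, 34.6% against 26.2% of all genes, with a median log2 ratio of -0.15. Tns3, a tensin, was 5.83-fold lower (1941 against 11311), and the parvin gene Parva (4151 against 1058, 3.92-fold) and the talin gene Tln2 (1063 against 378, 2.81-fold) were higher. Between the Sca-1(-) populations 7.69% were called, near the 10.4% of all genes, with 0 higher and 2 lower in PDGFRa(+) Sca-1(-) cells: Tln2 (378 against 1008, 2.67-fold) and Fermt3, a kindlin of blood cells (109 against 221, 2.04-fold). Between PDGFRa(+) Sca-1(+) and PDGFRa(-) Sca-1(-) cells, 6 were higher and 3 lower, 34.6% against 26.6% of all genes, with Tns3 5.4-fold lower, Parva 3.03-fold higher and Fermt3 at least 2.37-fold lower.

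On the cadherin side, 15 of 20 catenin and partner genes could be compared. In PDGFRa(+) Sca-1(+) against PDGFRa(+) Sca-1(-) cells 3 were higher and 4 lower, 46.7% against 26.2% of all genes. Plekha7, which links junctions to microtubules, was at least 4.65-fold lower (15.6 against 433), Arvcf, a catenin of the p120 family, at least 3.34-fold higher (311 against 75.8), and Ctnnal1, an alpha-catenin relative, 3.09-fold lower (573 against 1768). Between PDGFRa(+) Sca-1(-) and PDGFRa(-) Sca-1(-) cells 1 was higher, Plekha7 (433 against 214, 2.02-fold), and 2 were lower, Pkp1 (340 against 801, 2.35-fold) and Arvcf (75.8 against 201, at least 2.15-fold), together 20% against 10.4% of all genes. In PDGFRa(+) Sca-1(+) against PDGFRa(-) Sca-1(-) cells 2 were higher and 3 lower, 33.3% against 26.6% of all genes, with Ctnnal1 4.93-fold lower, Nectin3 2.76-fold higher (2512 against 911) and Plekha7 at least 2.3-fold lower.

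Of 35 other cadherin superfamily genes with a probe set, 15 could be compared between PDGFRa(+) Sca-1(+) and PDGFRa(+) Sca-1(-) cells, with 7 higher and 2 lower, 60% against 26.2% of all genes. The protocadherin Pcdh19 was 9.96-fold higher (1163 against 117), the giant cadherin Fat3 at least 7.26-fold lower (40.8 against 676) and the calsyntenin Clstn1 5.22-fold higher (3880 against 743). Between PDGFRa(+) Sca-1(-) and PDGFRa(-) Sca-1(-) cells 3 were higher and 3 lower, 40% against 10.4% of all genes. Fat3 was 6.53-fold higher (676 against 104) and Pcdh18 2.82-fold higher (606 against 215), and Clstn1 was 3.41-fold lower (743 against 2534). Fat3 was thus highest in PDGFRa(+) Sca-1(-) cells, as were Cdh2, Cdh15 and Cdh19. In PDGFRa(+) Sca-1(+) against PDGFRa(-) Sca-1(-) cells 5 of 19 were higher and 3 lower, 42.1% against 26.6% of all genes, led by Pcdh18 (1909 against 215, 8.87-fold), Pcdh7 (614 against 50.4, at least 6.59-fold) and Pcdh19 (1163 against 195, 5.95-fold), all higher. Over the 3 comparisons in this order, 7 of 15, 6 of 15 and 11 of 19 of these ratios are bounds. Over all genes compared, 1822 of 11855, 1282 of 11675 and 1814 of 11843 are bounds.

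**Figure D4:**
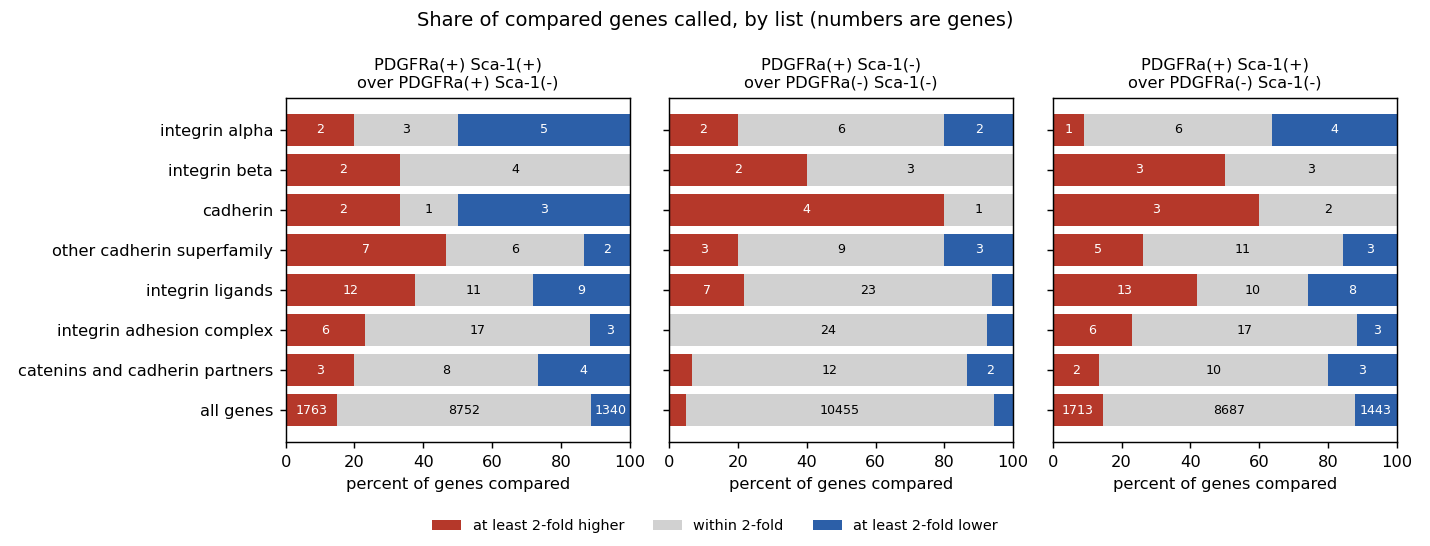
Percent of compared genes at least 2-fold higher (red), within 2-fold (grey) or at least 2-fold lower (blue) for the member families, the partner lists and all genes, in the 3 comparisons, with gene counts printed in bars wide enough to hold them. The cadherin bar of the second panel, with 4 of 5 compared genes higher, stands beside 4.82% of all genes, and the adhesion complex bar there is mostly grey, as is that of all genes.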

How the data were processed

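Total RNA was amplified in successive rounds and biotin-labelled for Affymetrix arrays, per the labels' protocols, with 1 array per sorted population. The authors deposited probe set intensities computed with MAS5, per the submitters' processing notes; the version, detection calls and filters are not given there. The 2% trimmed mean over 45101 probe sets was 500 on each array. Here, 64 control probe sets were set aside and each array was rescaled to a common trimmed mean (Python 3.11.15, pandas 2.3.3). Of the rest, 34945 probe sets had 1 symbol in the platform annotation, 932 several and 9160 none, and only those with 1 symbol were used. Of these, 34741 matched RefSeq GRCm38.p6 by gene number, with 0 symbols changed. Calls were computed over all genes, and the code was tested on simulated data. With 1 array per population there were no p-values; the number of arrays limits precision. Members and gene lists were chosen with earlier results of these data known. Every member was to be named, and per partner list and comparison up to 3 called genes with the largest ratio. Alternatives concerned the floor, scaling, probe set choice and threshold.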

Additional observations from a re-analysis of the deposited data

How the results depend on the processing

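Under 7 alternative settings that keep the 2-fold threshold, 424 log2 ratios of members were recomputed. Of these, 377 moved by no more than the SD between probe sets and 47 moved further. Ratios no longer compared were left out. Of 64, 55 remained with the mean over all probe sets and 49 with the 67th percentile floor. With that mean, the lost calls of Itga3, Itga4 and Cdh4 were among those left out. No called ratio changed sign, but most settings could hardly have reversed one. Moving the floor or adding a constant to each signal cannot reverse the order of a pair of arrays. Rescaling shifted the median log2 ratio of all genes by at most 0.12, so only averaging probe sets could readily reverse a call. The called members that kept their call in all 7 settings were as follows. For PDGFRa(+) Sca-1(+) over PDGFRa(+) Sca-1(-) they were 8 of 14 (Itga2b, Itga6, Itga7, Itga10, Itgb8, Cdh2, Cdh13, Cdh19). For PDGFRa(+) Sca-1(-) over PDGFRa(-) Sca-1(-) they were 6 of 10 (Itga7, Itga8, Itgb5, Cdh2, Cdh11, Cdh19). For PDGFRa(+) Sca-1(+) over PDGFRa(-) Sca-1(-) they were 6 of 11 (Itga2b, Itga10, Itgb5, Itgb8, Cdh11, Cdh13).

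Counts moved by over 1.5 times as follows. With the mean over all probe sets, 3 members in place of 6 were higher in PDGFRa(+) Sca-1(+) than PDGFRa(+) Sca-1(-) cells, 1 in place of 2 was lower in PDGFRa(+) Sca-1(-) than PDGFRa(-) Sca-1(-) cells, and 2 in place of 4 were lower in PDGFRa(+) Sca-1(+) than PDGFRa(-) Sca-1(-) cells. The count lower in PDGFRa(+) Sca-1(-) than PDGFRa(-) Sca-1(-) cells was also 1 with the floor at the 67th percentile, with a 3-fold threshold and with no floor but 32 added to each signal. The count lower in PDGFRa(+) Sca-1(+) than PDGFRa(-) Sca-1(-) cells was 7 with the floor at the 33rd percentile, 1 at the 67th, 2 at 3-fold and 8 with no floor. At 3-fold, 4 in place of 7 were higher in PDGFRa(+) Sca-1(+) than PDGFRa(-) Sca-1(-) cells. The mean takes in probe sets under the floor, and the other settings change which genes are compared or the threshold itself. Averaging only probe sets above the floor, an alternative chosen after seeing the data, kept all 14, 10 and 11 calls and gained Itga9 and Itgav (Itgav log2 ratios of -1.36 and -1.33) for PDGFRa(+) Sca-1(+) over PDGFRa(+) Sca-1(-) and over PDGFRa(-) Sca-1(-). The mean over all probe sets gained Itgav as well (-1.74 and -1.63). The 33rd percentile floor gained Itga9, Itgb4 and Itgb7 in both of these comparisons, with Cdh1 in the first and Cdh2 in the second, and with no floor Itgb4, Itgb7 and Cdh1 were gained in both, with Itga9 and Cdh2 in the second. Quantile and median scaling lost no call and gained Itga9, which lay at the threshold, and Itga5 with the median, which shifted the median log2 ratio of all genes by 0.12 for PDGFRa(+) Sca-1(+) over PDGFRa(+) Sca-1(-). Probe sets with several symbols were left out in every setting, so what they would add was not examined. No paired analysis was possible because each population has a single array. Genes near the floor of 93.2 are limited by their signal over background.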
